A study of Homo sapiens with 12 samples.

Results

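The endoplasmic reticulum (ER) folds and quality-checks secreted and membrane proteins, and 39 human genes of this machinery are described here in the LN229 glioblastoma cell line. They were taken from a fixed list of gene names, drawn up with earlier results of these data known, as stress sensors and regulators, chaperones with their cofactors, enzymes of disulfide bonds, genes of ER-associated degradation, and genes of the channel that brings proteins into the ER. The array values paired 35 of the 39 with a probe set of their own, out of 14232 genes measured. HSP90B1 and PDIA3 share their probe sets with other genes, and P4HB and SEC61B have no probe set in the table used here, so these 4 members were not analysed here. No filter on low values was applied.

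The 12 arrays form 4 groups of 3: cells in 1% oxygen with siRNA against HIF1A, cells in 1% oxygen with siRNA against HIF2A (gene symbol EPAS1), cells in 1% oxygen with non-targeting control siRNA, and cells in 20% oxygen with the control siRNA. All cells were transfected 24 h after seeding, kept for 48 h and then held for 16 h at the stated oxygen tension, so each group carries an siRNA. LN229 is a single line, and an siRNA pool or sequence is not given in the labels, so effects of one siRNA reagent and of its target cannot be told apart. The replicate numbers in the labels do not say whether the samples were separate cultures, so the spread behind each p-value may be technical. RNA came from bulk cells, where fewer cells expressing a gene and less RNA per cell cannot be told apart.

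When unfolded proteins build up in the ER, 3 membrane sensors respond: IRE1 (gene ERN1), which splices the mRNA of the transcription factor XBP1, PERK (EIF2AK3), which slows translation and favours ATF4, and ATF6, itself a transcription factor once cleaved. Their targets are chaperones led by BiP (HSPA5), oxidoreductases, and the degradation complex built around the ubiquitin ligase HRD1 (SYVN1) and its partner SEL1L. Disulfide bonds are made by protein disulfide isomerases, which the ERO1 oxidases recharge with oxygen as the electron acceptor. ERO1A is known as a gene induced by HIF-1, the transcription factor stabilised in low oxygen. The question of the study was which hypoxic responses depend on HIF-1A and which on HIF-2A.

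The promoters shown next belong to the members on which the results turn: ERO1A, with the largest change of the 35, HERPUD1 and SEL1L, degradation genes called higher in hypoxia on at least 1 of the scales used, and HSPA5, the central chaperone. Each is the 250 bases before the gene start in RefSeq (GRCh38.p14), 5′ to 3′ on the gene's strand, with matches to the searched motifs in capitals. The motifs were the HIF core (ACGTG or GCGTG), the ER stress element ERSE (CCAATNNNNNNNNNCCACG) and ERSE-II (ATTGG and CCACG with 1 base between them), on both strands.
ERO1A, chr14:52695559-52695808, minus strand: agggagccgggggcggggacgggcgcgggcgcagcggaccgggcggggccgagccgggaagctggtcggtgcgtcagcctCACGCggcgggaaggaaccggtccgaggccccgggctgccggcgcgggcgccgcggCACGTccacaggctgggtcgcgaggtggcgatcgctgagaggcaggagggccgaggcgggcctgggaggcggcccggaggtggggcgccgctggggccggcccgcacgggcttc
HERPUD1, chr16:56931892-56932141, plus strand: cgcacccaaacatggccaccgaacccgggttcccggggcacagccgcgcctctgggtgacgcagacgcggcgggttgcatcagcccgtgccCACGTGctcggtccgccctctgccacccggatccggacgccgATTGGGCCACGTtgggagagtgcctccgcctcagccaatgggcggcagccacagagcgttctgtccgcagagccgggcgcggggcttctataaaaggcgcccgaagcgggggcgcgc
SEL1L, chr14:81533854-81534103, minus strand: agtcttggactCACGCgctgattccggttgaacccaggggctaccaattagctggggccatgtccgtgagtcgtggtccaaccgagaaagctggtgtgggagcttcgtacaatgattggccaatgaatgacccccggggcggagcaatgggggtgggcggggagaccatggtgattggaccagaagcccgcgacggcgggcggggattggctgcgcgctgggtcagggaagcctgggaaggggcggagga
HSPA5, chr9:125241344-125241593, minus strand: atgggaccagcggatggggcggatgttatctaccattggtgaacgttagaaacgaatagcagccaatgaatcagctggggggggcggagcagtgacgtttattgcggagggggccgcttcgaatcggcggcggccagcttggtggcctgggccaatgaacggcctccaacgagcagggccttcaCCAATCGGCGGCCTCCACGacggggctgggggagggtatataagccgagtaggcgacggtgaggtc

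In the ERO1A window the HIF core matched at 170 to 166 and at 114 to 110 bases before the start. In HERPUD1 it matched at 2 places, a palindrome read on both strands at 159 to 154 bases and a core at 110 to 106 bases, which shares bases with the ERSE-II match at 117 to 107 bases. SEL1L held 1 core at 239 to 235 bases, and HSPA5 held no core and 1 ERSE at 66 to 48 bases. RefSeq entries were found for 36 of the 39 members, DERL1, DERL3 and PDIA3 being the others. Counted in the same 250 bases before the start, a HIF core lay in 32 of these 36 members (88.9%), against 47.4% of 27305 genes with an entry. An ERSE lay in 8 (22.2%) against 0.0916%, namely in CALR, CANX, CRELD2, ERO1B, HSP90B1, HSPA5, PDIA6 and XBP1, and an ERSE-II in HERPUD1, HYOU1 and SDF2L1 (8.33% against 0.0659%). Of 14 ER stress elements counted over the 44 member windows, 8 shared bases with a HIF core, so the counts overlap, and genes with several starts were counted if any window matched. A match describes the letters only.

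HIF1A, the transcript targeted by the first siRNA, measured 8.20, 9.06 and 7.74 on the log2 scale with HIF1A siRNA, against 11.72, 11.40 and 11.26 with control siRNA in hypoxia (-3.13, SE 0.27, adjusted p = 1.6e-04). EPAS1 measured 7.18, 6.99 and 7.18 with HIF2A siRNA, against 9.74, 9.57 and 9.83 with control siRNA in hypoxia (-2.59, SE 0.15). It was also lower with HIF1A siRNA, at 8.60, 8.08 and 8.02 (-1.48, SE 0.15, adjusted p = 3.1e-04). Arrays of one group correlated over all probe sets at r = 0.983 to 0.994. The 3 arrays of hypoxia with control siRNA each correlated best with a HIF2A siRNA array (r = 0.991 to 0.993) and not with one of their own group. HIF1A siRNA replicate 2, the array of its group with the most HIF1A (9.06), likewise correlated best with hypoxia control replicate 2 (r = 0.990, against a mean of 0.985 with its own group). Among glial and neural stem markers, VIM, S100B, NES, CD44, SOX9 and OLIG2 lay above every array's median, GFAP (mean 6.37), ALDH1L1, AQP4, SLC1A2 and SLC1A3 did not. Of markers of other cell types, 3 of 6 for leukocytes (PTPRC among them), 2 of 4 for endothelium, 2 of 3 for epithelium, 0 of 3 for neurons and 0 of 3 for oligodendrocytes lay below every array's lower quartile, and CD68, MAP2 and SYT1 lay above every median. The upper quartile of HIF1A siRNA replicate 3 was 7.88, against 8.20 to 8.57 on the other 11 arrays. The members are mostly bright, 30 of 35 lying above every array's median. Results are therefore given on the deposited values and, beside them, after quantile normalization, which gives every array the same distribution.

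The median of the 35 members on each array shows how far this matters. It was 9.12, 9.24 and 8.60 with HIF1A siRNA, 9.48, 9.28 and 9.51 with HIF2A siRNA, 9.60, 9.40 and 9.41 with control siRNA in hypoxia, and 9.34, 9.25 and 9.36 in normoxia. HIF1A siRNA replicate 3 was the lowest of the 12, and the 3 HIF1A siRNA arrays lay below those of every other group. After quantile normalization the HIF1A siRNA arrays stood at 9.25, 9.38 and 9.09, still below the 9.47, 9.46 and 9.41 of control siRNA in hypoxia, while normoxia stood at 9.10, 9.11 and 9.17.

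**Figure D1:**
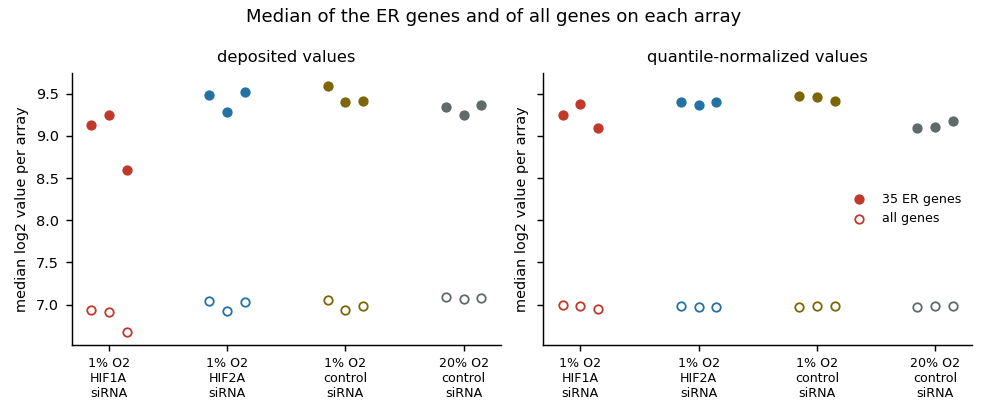
Median log2 value per array of the 35 ER genes (filled) and of all 14232 genes (open), by group, on the deposited (left) and quantile-normalized (right) values. HIF1A siRNA replicate 3 is lowest on the deposited values at 8.60, and the medians of all genes lie together once the arrays share a distribution.

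Hypoxia with control siRNA changed few members. ERO1A rose 2.95-fold, SEL1L rose 1.46-fold and DNAJB9 fell, while 32 of the 35 were not called by limma at an adjusted p under 0.05 (Benjamini-Hochberg over 14232 genes, n = 3 arrays per group). Rises were called in 3.37% and falls in 8.95% of all genes. With quantile normalization 5 members rose, adding HERPUD1, XBP1 and EDEM1, and 2 fell, adding SEC61A1 (6.65% and 8.43% of all genes). The members' median log2 change was -0.03 as deposited and turned to 0.07 after quantile normalization, beside -0.03 and 0.03 over all genes. Against genes that also lie above every array's median, the medians were -0.01 for 30 members and -0.13 for 7522 genes as deposited, and 0.11 and 0.00 after quantile normalization. Groups did not overlap for 19 members, beside 38.4% of all genes. As deposited, 9 of 35 members lay above and 10 below normoxia, beside 1721 and 3737 of 14232 genes. After quantile normalization 14 lay above and 7 below, beside 2704 and 2814 of 14232 genes.

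HIF1A siRNA in hypoxia lowered 8 members against control siRNA and raised none, among them ERO1A 3.29-fold, the chaperones HSPA5 and HYOU1, and the degradation genes SEL1L, EDEM1 and HERPUD1. Falls were called in 10.2% and rises in 0.857% of all genes. Among genes above every array's median, 8 of 30 members and 1183 of 7522 genes were called lower. After quantile normalization 7 fell and none rose, where all genes had 7.90% falls and 5.10% rises. The bright sets then had falls in 7 of 30 members and 845 of 7522 genes. The log2 change was below 0 for 32 of 35 members as deposited and for 23 of 35 after quantile normalization, with medians of -0.29 and -0.15. The first became -0.16 without HIF1A siRNA replicate 3, and the members' median varied between replicates by an SD of 0.25 in this comparison. All genes had medians of -0.05 and 0.07, and the 7522 bright genes -0.22 and 0.01, against -0.31 and -0.15 for the 30 bright members. The number of falls depended on single arrays: without hypoxia control replicate 1 only ERO1A stayed called, without HIF1A siRNA replicate 3 only ERO1A and HYOU1, and the count was 5 without hypoxia control replicate 2 or 3 and 11 without HIF1A siRNA replicate 2. The part of the narrower array range in these falls was not tested beyond these values.

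HIF2A siRNA changed no member by limma, with 0 called in either direction as deposited and after quantile normalization. At an unadjusted p under 0.05 there were 1 and 2 members, and among all 14232 genes only EPAS1 itself was called as deposited (0% higher and 0.00703% lower), with 0.00703% higher and 0.0211% lower after quantile normalization. The members' log2 changes ran between -0.35 and 0.30, with a median of -0.01. DNAJC3 had the lowest (SE 0.29) and PDIA5 the highest (SE 0.13).

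**Figure D2:**
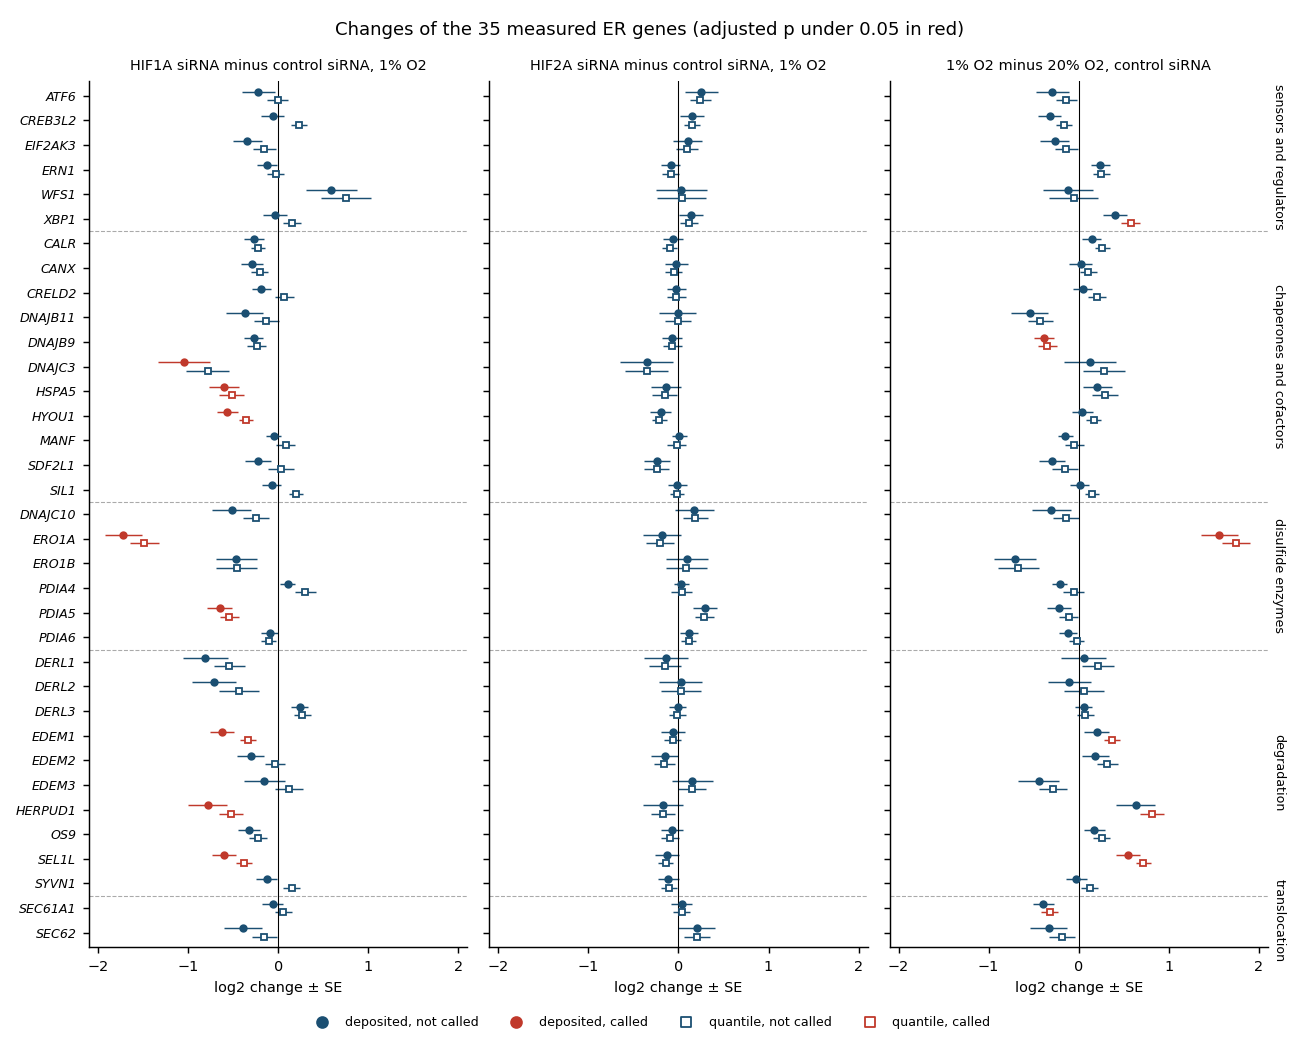
Log2 change (± SE from limma, 3 arrays per group) of the 35 measured ER genes, by class, for HIF1A siRNA against control siRNA in 1% oxygen, HIF2A siRNA against control siRNA in 1% oxygen, and 1% against 20% oxygen with control siRNA. Circles are deposited and squares quantile-normalized values, and called genes are red; ERO1A stands apart at -1.72 in the first and 1.56 in the third comparison, and no gene is red in the second.

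ERO1A, the oxidase that recharges disulfide isomerases, was the member with the largest change. It measured 9.17, 9.83 and 8.92 with HIF1A siRNA, 10.89, 10.66 and 10.98 with HIF2A siRNA, 11.30, 10.94 and 10.83 with control siRNA in hypoxia, and 9.52, 9.40 and 9.47 in normoxia. The hypoxic control and HIF2A siRNA arrays all lay above the other 6, and the HIF1A siRNA arrays overlapped those of normoxia. The rise in hypoxia had a log2 change of 1.56 (SE 0.21, adjusted p = 9.9e-04), the 42nd largest of 14232 genes. The fall with HIF1A siRNA was -1.72 (SE 0.21, adjusted p = 9.3e-04), and HIF1A siRNA was also below HIF2A siRNA by a log2 change of -1.54 (SE 0.21, adjusted p = 0.0018). Both calls against control arrays held in all 16 alternatives computed for each. With HIF2A siRNA, ERO1A stayed above normoxia (1.38, SE 0.21, adjusted p = 0.0023), and its difference from control siRNA was -0.18 (95% interval -0.64 to 0.27). With HIF1A siRNA its difference from normoxia was -0.16 (95% interval -0.61 to 0.30) as deposited and 0.26 (-0.09 to 0.61) after quantile normalization, so the sign depends on the scale.

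ERO1B, the second ERO1 oxidase, did not share this pattern. It measured 5.50, 5.27 and 4.72 with HIF1A siRNA, 5.79, 5.35 and 6.03 with HIF2A siRNA, 5.89, 5.35 and 5.64 with control siRNA in hypoxia, and 6.57, 6.27 and 6.17 in normoxia. Each of the 9 hypoxic values lay below each normoxic one. The log2 change in hypoxia with control siRNA was -0.71 (SE 0.23, adjusted p = 0.0715) and was not called, while hypoxia with HIF1A siRNA against normoxia gave a called fall of -1.17 (SE 0.23, adjusted p = 0.0056). Of its 12 values, 1 lay below the lower quartile of its array, and the files hold no measure of background.

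No protein disulfide isomerase measured among the members was called higher in hypoxia, and PDIA3 and P4HB were not analysed. PDIA4, PDIA5 and PDIA6 had log2 changes of -0.21, -0.22 and -0.12, and the reductase DNAJC10, which opens disulfides of proteins bound for degradation, had -0.30 (adjusted p between 0.140 and 0.536). PDIA5 differed between the siRNAs. It measured 6.56, 6.44 and 6.35 with HIF1A siRNA, 7.37, 7.26 and 7.57 with HIF2A siRNA, 7.24, 6.91 and 7.15 with control siRNA in hypoxia, and 7.51, 7.12 and 7.32 in normoxia. The HIF1A siRNA arrays lay below all 9 others. It fell 1.57-fold with HIF1A siRNA against control siRNA (-0.65, SE 0.13, adjusted p = 0.0141), and by -0.95 (SE 0.13, adjusted p = 0.0025) against HIF2A siRNA, a difference that was called after quantile normalization too (-0.83, SE 0.10, adjusted p = 9.6e-04). The first call was lost without HIF1A siRNA replicate 3 (adjusted p = 0.0537) or hypoxia control replicate 1 (0.0725). It was also lost when the fit held the 2 groups compared alone (adjusted p = 0.0930).

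SEL1L, in the degradation class, was the other called rise in hypoxia. SEL1L, the adaptor of the HRD1 ligase, measured 9.59, 9.85 and 9.31 with HIF1A siRNA, 10.08, 9.95 and 10.14 with HIF2A siRNA, 10.30, 10.13 and 10.12 with control siRNA in hypoxia, and 9.72, 9.60 and 9.59 in normoxia. The hypoxic control arrays lay above those of normoxia and of HIF1A siRNA, which overlapped each other. Its rise in hypoxia was 0.55 (SE 0.13, adjusted p = 0.0203) as deposited and 0.72 (SE 0.08, adjusted p = 2.8e-04) after quantile normalization, and the first was lost on leaving out any of 5 of the 6 arrays, all but hypoxia control replicate 3 (adjusted p up to 0.0794). With HIF1A siRNA it fell by 0.60 on the log2 scale (SE 0.13, adjusted p = 0.0177), a call lost without HIF1A siRNA replicate 3 (adjusted p = 0.0514) or hypoxia control replicate 1 (0.0853). The call was also lost when the fit held the 2 groups compared alone (adjusted p = 0.135).

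HERPUD1, a stress-induced membrane protein of the same ligase complex, measured 9.46, 9.42 and 8.54 with HIF1A siRNA, 9.88, 9.51 and 9.88 with HIF2A siRNA, 10.11, 9.87 and 9.80 with control siRNA in hypoxia, and 9.31, 9.21 and 9.36 in normoxia. The hypoxic control arrays lay above the normoxic ones, and HIF1A siRNA replicate 3 lay apart from its group at 8.54. The difference of hypoxia from normoxia was 0.63 (SE 0.22, adjusted p = 0.0849) as deposited and a called rise of 0.81 (SE 0.13, adjusted p = 0.0022) after quantile normalization. HIF1A siRNA gave -0.78 (SE 0.22, adjusted p = 0.0428), which became -0.49 without its replicate 3 (adjusted p = 0.0846). The call was lost in 8 of 16 alternatives (adjusted p up to 0.175), among them the omission of each hypoxia control array.

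EDEM1, a lectin that targets misfolded glycoproteins for degradation, measured 9.12, 8.76 and 8.60 with HIF1A siRNA, 9.37, 9.28 and 9.51 with HIF2A siRNA, 9.60, 9.34 and 9.41 with control siRNA in hypoxia, and 9.34, 9.19 and 9.22 in normoxia. Its HIF1A siRNA values were below those of the 9 other arrays. It fell with HIF1A siRNA (-0.62, SE 0.14, adjusted p = 0.0186), not called without HIF1A siRNA replicate 3 (adjusted p = 0.0660) or hypoxia control replicate 1 (0.0898). Nor was it called when the fit held the 2 groups compared alone (adjusted p = 0.134). Its change in hypoxia was 0.20 (SE 0.14) as deposited and a called 0.37 (SE 0.09, adjusted p = 0.0214) after quantile normalization. The class of 10 had a median log2 change of 0.12 in hypoxia and -0.46 with HIF1A siRNA as deposited, and 0.23 and -0.28 after quantile normalization. SYVN1, the ligase itself, had -0.03 and -0.13, and the lectin OS9 had 0.18 and -0.33, neither gene being called. DERL1 and DERL2, which form the membrane exit channel, had -0.81 (SE 0.25, adjusted p = 0.0582) and -0.71 (SE 0.24, adjusted p = 0.0769) with HIF1A siRNA.

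**Figure D3:**
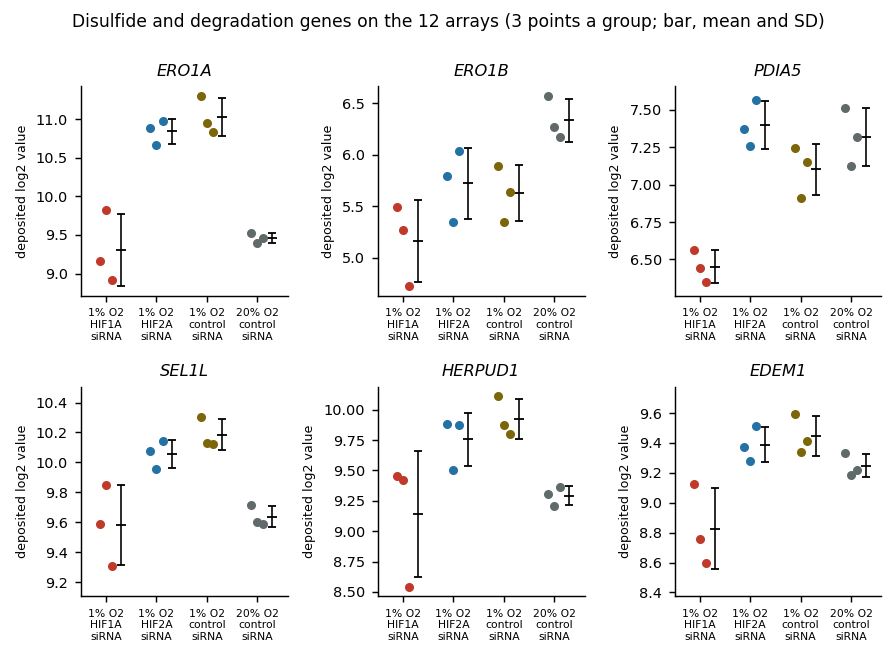
Deposited log2 values of ERO1A, ERO1B, PDIA5, SEL1L, HERPUD1 and EDEM1 on the 12 arrays, 3 points per group, with the mean and SD as a bar beside them; each panel has its own vertical range. ERO1A is high in hypoxia with control or HIF2A siRNA (10.66 to 11.30) and low with HIF1A siRNA or in normoxia (8.92 to 9.83).

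No chaperone was called higher in hypoxia on either scale. HSPA5 (BiP), which binds unfolded chains and holds the sensors inactive, measured 11.02, 11.66 and 10.99 with HIF1A siRNA, 11.74, 11.57 and 11.74 with HIF2A siRNA, 11.93, 11.87 and 11.66 with control siRNA in hypoxia, and 11.69, 11.63 and 11.52 in normoxia. As deposited, hypoxic control and normoxic values overlapped, with a log2 change of 0.21 (95% interval -0.15 to 0.57, adjusted p = 0.516). The interval allows a rise of up to that upper bound. After quantile normalization HSPA5 did not overlap, at 11.72 to 11.89 in hypoxic control and 11.43 to 11.59 in normoxia, and was not called. With HIF1A siRNA it fell 1.51-fold (-0.60, SE 0.16, adjusted p = 0.0409), but replicate 2 stayed at 11.66 and the call was lost in 9 of 16 alternatives, among them the omission of each hypoxic control array.

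HYOU1, an ER chaperone of the same family known from low-oxygen stress, measured 10.08, 10.23 and 9.79 with HIF1A siRNA, 10.49, 10.35 and 10.37 with HIF2A siRNA, 10.70, 10.58 and 10.52 with control siRNA in hypoxia, and 10.58, 10.58 and 10.53 in normoxia. Hypoxic control and normoxic arrays overlapped as deposited, with a difference of 0.04 (95% interval -0.21 to 0.29). After quantile normalization they did not, at 10.54 to 10.62 in hypoxic control and 10.38 to 10.49 in normoxia. HIF1A siRNA gave a fall of 1.48-fold (-0.57, SE 0.12, adjusted p = 0.0136), called in 14 of 16 alternatives. It was not called when the fit held the 2 groups compared alone (adjusted p = 0.130) or without hypoxia control replicate 1 (0.0697).

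DNAJC3, a co-chaperone of BiP, measured 7.89, 8.76 and 7.49 with HIF1A siRNA, 8.84, 8.33 and 9.03 with HIF2A siRNA, 9.43, 8.93 and 8.90 with control siRNA in hypoxia, and 9.04, 8.97 and 8.87 in normoxia. As deposited, the HIF1A siRNA arrays spread widely and lay below those of control siRNA in hypoxia, which overlapped normoxia. After quantile normalization the hypoxic control values were 8.90 to 9.28, above the 8.70 to 8.84 of normoxia. The fall of DNAJC3 with HIF1A siRNA was -1.04 (SE 0.29, adjusted p = 0.0431). This call was lost in 11 of 16 alternatives (adjusted p up to 0.183), among them quantile normalization (-0.78, adjusted p = 0.0526) and the omission of each hypoxia control array.

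DNAJB9, a co-chaperone that restrains IRE1 and is a known XBP1 target, was the called fall in hypoxia. Its values were 5.87, 5.74 and 5.81 with HIF1A siRNA, 5.88, 5.96 and 6.18 with HIF2A siRNA, 6.19, 6.09 and 5.96 with control siRNA in hypoxia, and 6.52, 6.37 and 6.50 in normoxia. All 9 hypoxic arrays lay below the 3 normoxic ones. The change was -0.39 (SE 0.11, adjusted p = 0.0375) with control siRNA, -0.46 (adjusted p = 0.0219) with HIF2A siRNA and -0.66 (adjusted p = 0.0034) with HIF1A siRNA, all against the same normoxic arrays. The first was lost in 7 of 16 alternatives, among them the omission of each normoxia array and of hypoxia control replicate 2 or 3. The second was lost in 4 of 16, and the third held in all 16. DNAJB9 is a dim member, with an average of 6.09 that exceeded 35.9% of genes. CALR, CANX, CRELD2, MANF and SIL1 had changes in hypoxia between -0.15 and 0.14 as deposited and were not called on either scale. After quantile normalization 5 of 11 chaperones lay above normoxia without overlap, CALR and SIL1 among them, beside 2704 of 14232 genes. CALR was called higher in 1 alternative, cyclic loess normalization (limma adjusted p = 0.036). DNAJB11 had -0.55 (SE 0.20, adjusted p = 0.110) and SDF2L1 -0.30 (SE 0.14, adjusted p = 0.220). All 11 chaperones had negative changes with HIF1A siRNA as deposited, and 7 of 11 after quantile normalization, beside 5727 and 3702 of the 7522 bright genes.

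The 3 stress sensors were not called in hypoxia or with either siRNA against control siRNA. EIF2AK3 was called with HIF1A siRNA against control siRNA in 1 alternative, without HIF1A siRNA replicate 1 (limma adjusted p = 0.0396). In hypoxia with HIF1A siRNA against normoxia, EIF2AK3 and ATF6 were called lower as deposited, beside 30.4% of all genes. These calls held in 12 and 6 of 16 alternatives, and neither held after quantile normalization. ERN1 measured 6.57, 6.31 and 6.28 with HIF1A siRNA, 6.43, 6.37 and 6.47 with HIF2A siRNA, 6.66, 6.45 and 6.42 with control siRNA in hypoxia, and 6.34, 6.24 and 6.23 in normoxia. The hypoxic control arrays lay above normoxia by 0.24 (SE 0.11, adjusted p = 0.185). EIF2AK3 measured 7.52, 7.04 and 6.91 with HIF1A siRNA, 7.64, 7.41 and 7.75 with HIF2A siRNA, 7.63, 7.29 and 7.57 with control siRNA in hypoxia, and 7.85, 7.69 and 7.76 in normoxia. Its hypoxic control values all lay below those of normoxia, with a difference of -0.27 (SE 0.16, adjusted p = 0.359). ATF6 measured 10.27, 9.94 and 9.54 with HIF1A siRNA, 10.40, 10.20 and 10.58 with HIF2A siRNA, 10.35, 9.95 and 10.12 with control siRNA in hypoxia, and 10.53, 10.35 and 10.41 in normoxia. The hypoxic control arrays lay below normoxia, the nearest only narrowly, with a difference of -0.29 (SE 0.18, adjusted p = 0.368), and overlapped it after quantile normalization (-0.14).

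XBP1, the transcription factor downstream of IRE1, lay higher on every hypoxic array than in normoxia. It measured 10.05, 10.36 and 9.91 with HIF1A siRNA, 10.38, 10.18 and 10.30 with HIF2A siRNA, 10.35, 10.11 and 9.97 with control siRNA in hypoxia, and 9.74, 9.73 and 9.76 in normoxia. All 9 hypoxic arrays lay above the 3 normoxic ones, whichever siRNA they carried. Against normoxia the changes were 0.36 with HIF1A siRNA (SE 0.13, adjusted p = 0.0556), 0.54 with HIF2A siRNA (SE 0.13, adjusted p = 0.0288) and 0.40 with control siRNA (SE 0.13, adjusted p = 0.0789). After quantile normalization they were 0.72 (adjusted p = 0.00235), 0.70 (0.0012) and 0.58 (0.0031), each called, and these comparisons share the normoxic arrays. The deposited call with HIF2A siRNA was lost on leaving out any 1 of its 6 arrays (adjusted p up to 0.0996). HIF1A siRNA differed from control siRNA by -0.04 (95% interval -0.33 to 0.26). The arrays give 1 value per gene, so spliced and unspliced XBP1 were not separated. CREB3L2, a related ER-bound factor, and WFS1, a membrane protein that restrains ATF6, had -0.32 (adjusted p = 0.145) and -0.12 (0.865) in hypoxia. WFS1 was the highest of all members with HIF1A siRNA, at 0.59 (SE 0.29, adjusted p = 0.178).

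**Figure D4:**
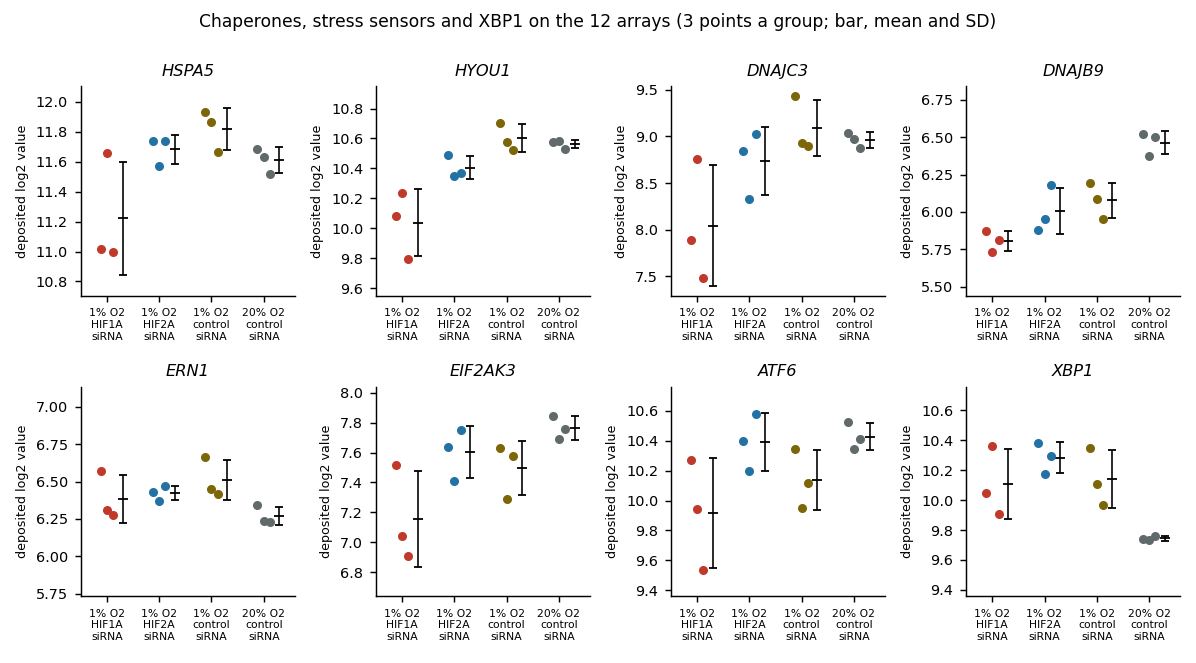
Deposited log2 values of the chaperone genes HSPA5, HYOU1, DNAJC3 and DNAJB9, the sensors ERN1, EIF2AK3 and ATF6, and XBP1 on the 12 arrays, 3 points per group, with the mean and SD as a bar beside them; each panel has its own vertical range. XBP1 lies above and DNAJB9 below the normoxic arrays on all 9 hypoxic arrays.

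In the translocation class, SEC61A1, the pore of the channel, measured 11.15, 10.93 and 10.71 with HIF1A siRNA, 11.09, 11.02 and 10.97 with HIF2A siRNA, 10.97, 10.88 and 11.13 with control siRNA in hypoxia, and 11.40, 11.36 and 11.39 in normoxia. The 9 hypoxic values all lay below the normoxic ones. The change with control siRNA was -0.39 (SE 0.12, adjusted p = 0.0508) as deposited and a called -0.32 (SE 0.10, adjusted p = 0.0454) after quantile normalization. SEC62 had -0.33 by its brighter probe set and -0.07 by the other, and was not called.

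Hypoxia with HIF1A siRNA against normoxia had 16 members called lower, among them EIF2AK3, ATF6 and CREB3L2, and 1, DERL3, higher on the deposited values. Falls were called in 30.4% and rises in 4.67% of all genes. Among genes above every array's median, 14 of 30 members and 3594 of 7522 genes were called lower, shares close to each other. After quantile normalization 4 members fell and 5 rose, against 14.6% and 15.7% of all genes. The called falls on that scale were in ERO1B, PDIA5, DNAJB9 and DNAJB11, and the rises in XBP1, SEL1L, SIL1, DERL3 and SYVN1. The falls of DNAJB11, DNAJB9, ERO1B and PDIA5 were called in all 16 alternatives. The deposited rise of DERL3, a dim member with an average of 5.77, was lost in 8 of the 15 alternatives that held it. Of these losses, 5 came from leaving out 1 array. Hypoxia with HIF2A siRNA had 2 members higher than normoxia, ERO1A and XBP1, and 2 lower, DNAJB9 and SDF2L1, beside 2.85% and 6.79% of all genes. After quantile normalization 4 were higher, with SEL1L and HERPUD1 added, and DNAJB9 was lower, beside 5.40% and 6.34%. Between the siRNAs, 4 members were lower with HIF1A siRNA than with HIF2A siRNA, ERO1A, PDIA5, EDEM1 and SEL1L, and none was higher, beside 8.53% and 0.899% of all genes. Above every array's median, 4 of 30 members and 965 of 7522 genes were lower. The calls of ERO1A and PDIA5 held in all 16 alternatives, those of EDEM1 and SEL1L in 10 and 5. ERO1A and PDIA5 were the 2 called lower after quantile normalization, beside 6.89% lower and 5.61% higher of all genes.

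Of 86 other genes of these pathways, 70 were measured. In hypoxia with control siRNA, 2 of them rose and 7 fell as deposited, and 15 rose and 10 fell after quantile normalization, beside 3.37% and 8.95%, and 6.65% and 8.43%, of all genes. The rises as deposited were both in the 7 targets of the PERK arm: TRIB3, a pseudokinase induced by ATF4 (0.94, SE 0.11, adjusted p = 3.5e-04), and CHAC1, which degrades glutathione (0.88, SE 0.22, adjusted p = 0.0251). DDIT3 (CHOP) and SESN2 joined them after quantile normalization (0.64 and 0.40), and ATF4 itself was at 0.05 and 0.13. The remaining rises on the quantile scale lay outside the PERK arm. They were in 3 of 11 glycoprotein folding genes, 4 of 16 thiol and proline folding enzymes and 2 of 15 degradation genes. Sensors and regulators had 1 of 9 and translocation genes 1 of 12, all beside 6.65% of all genes. The falls as deposited included 4 of 15 other degradation genes, beside 8.95% of all genes. Among them were VCP, the ATPase that pulls substrates out of the ER (-0.40, SE 0.11, adjusted p = 0.0384), and its cofactor UFD1 (-0.73, SE 0.11, adjusted p = 0.0018). Both were called on the quantile scale as well, with NPLOC4, the partner of UFD1, at -0.28 (adjusted p = 0.0462). The prolyl isomerase FKBP14 also fell (-1.06, SE 0.18, adjusted p = 0.0041), and so did the signal peptidase subunit SPCS3 (-0.75, adjusted p = 0.0432) and the signal recognition receptor subunit SRPRB (-0.67, adjusted p = 0.0352).

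With HIF1A siRNA against control siRNA, 6 of these 70 genes fell and none rose as deposited, beside 10.2% and 0.857% of all genes. NGLY1, which strips glycans from proteins leaving the ER, changed by -1.03 (SE 0.17, adjusted p = 0.0061) and PRDX4, an ER peroxidase that feeds disulfide formation, by -0.97 (SE 0.22, adjusted p = 0.0222). MBTPS1, the protease that activates ATF6, fell by 0.55 on the log2 scale (SE 0.11, adjusted p = 0.0125), and TMX4, TXNDC11 and SEC61A2 lay between -0.47 and -0.55. After quantile normalization 5 fell and 1 rose, beside 7.90% and 5.10% of all genes: TXNDC11 lost its call and AUP1 rose by 0.42 (adjusted p = 0.0199). Against control siRNA, none of the 7 PERK arm targets was called with HIF1A siRNA on either scale. Between the siRNAs, 3 of the 7 were lower with HIF1A siRNA as deposited and 1 after quantile normalization, beside 8.53% and 6.89% of all genes. Against normoxia, hypoxia with HIF1A siRNA had 3 higher and 1 lower as deposited (4.67% and 30.4% of all genes). After quantile normalization 5 were higher and 0 lower (15.7% and 14.6%). With HIF2A siRNA against control siRNA, limma called 0 of the 70 on either scale, with 4 and 9 at an unadjusted p under 0.05.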

How the data were processed

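The deposited file gives 1 value for each of 22011 probe sets per array. The deposited values were read as log2 expression made by the authors, an inference from their range of 1.14 to 14.3, since the labels do not name the scale. Partek and hg18 are listed in the submitters' processing notes. How the authors corrected background, summarized probes, normalized arrays or filtered is not stated in those notes or the labels. Of the probe sets, 14432 carry a single gene symbol in the platform annotation, 2408 carry more than 1, and 5171 are unnamed; 14404 of the gene IDs matched RefSeq. Each of 14232 genes is represented by its probe set of highest average.

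Group means were fitted over all arrays and probe sets with limma 3.58.1 in R 4.3.3 and moderated with eBayes. P-values were adjusted (Benjamini-Hochberg) over genes within each of 6 comparisons, and called means an adjusted p under 0.05. The fit was tested on simulated data. Array number limits the precision. Members and lists were chosen with earlier results of these data known. Values on every array are given for members called in hypoxia or with either siRNA against control siRNA, on either scale, and for the sensors, HSPA5 and the ERO1 genes. Alternatives were quantile, cyclic loess and median normalization, a replicate block, fitting the compared groups alone, a variance trend, array weights, a filter (6 or more on at least 3 arrays), averaged probe sets, adjustment over all probe sets, and leaving out each array.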

Additional observations from a re-analysis of the deposited data

How the results depend on the processing

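Of 11 called changes of single members in hypoxia or with HIF1A siRNA against control siRNA, only the 2 of ERO1A held in all 16 alternatives each, and 15 uncalled ones were called in some alternative. No call reversed its direction. With 3 arrays per group the counts moved with single arrays, and no cause of a moved count was tested. The depth of signal over background is unknown.

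In hypoxia with control siRNA against normoxia, 2 members higher became 5 with quantile, 8 with cyclic loess, 4 with median centring and 4 with array weights. The 1 lower became 2 with quantile, median centring or the variance trend, 4 with the groups alone, 6 with array weights and 3 with the filter or averaged probe sets. The median of -0.03 became 0.0723 with quantile and 0.0672 with loess. Leaving out arrays gave 1 to 2 higher and 0 to 1 lower. With HIF1A siRNA against control siRNA, 8 lower became 1 with the groups alone and 5 with array weights, and 1 to 11 on leaving out arrays. With HIF1A siRNA against normoxia, 1 higher became 5 with quantile or loess, 3 with median centring, 0 with the groups alone and 2 with averaged probe sets; 16 lower became 4, 4 and 7 with quantile, loess and the groups alone. The median of -0.39 became -0.0998 with quantile and -0.0287 with loess. Leaving out arrays gave 0 to 1 higher and 5 to 14 lower. With HIF2A siRNA against normoxia, 2 higher became 4 with quantile, loess or array weights; 2 lower became 1 with quantile or loess, 4 with the groups alone and 5 with array weights. The median of -0.08 became 0.0604 with quantile and 0.0813 with loess, and leaving out arrays gave 1 higher, 0 to 1 lower and medians of -0.130 to 0.0263. Between the siRNAs, 4 lower with HIF1A siRNA became 2 with quantile, loess or the groups alone, 7 with the filter or averaged probe sets, and 2 to 10 on leaving out arrays.

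Same-numbered arrays of different groups deviated together (r over 0.1) in 6 of 18 pairs, with r between -0.49 and 0.60, so the numbers were not taken to pair the samples. Arrays with different numbers shared deviations as strong. Hypoxia control replicate 1 had r = 0.62 with HIF2A siRNA replicate 3 and -0.64 with its replicate 2. The source of these shared deviations was not tested. With the replicate number as a block, 2 members were higher and 0 lower in hypoxia, 5 lower with HIF1A siRNA, 0 called with HIF2A siRNA, 0 higher and 16 lower with HIF1A siRNA against normoxia, 2 higher and 1 lower with HIF2A siRNA against normoxia, and 3 lower between the siRNAs.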
